A study of Mus musculus with 70 samples.

Results

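The strong pituitary-only TRβ sites without ATAC change are genomic regions that thyroid hormone receptor β (TRβ) occupied in the pituitary gland of untreated mice. They were chosen from a list of 8051 pituitary TRβ peaks by 4 conditions on measured values. A peak had at least 30 reads in the tagged-receptor libraries and at most 10 reads in the control libraries. It overlapped none of the 5164 TRβ peaks of the cerebral cortex and none of the 1776 regions whose chromatin accessibility changed with the thyroid hormone T3 in the ATAC-seq comparison of the same study. The conditions left 868 regions, which were 10.8% of all pituitary peaks and 52.9% of the 1640 peaks that met both read conditions. Because reads and overlaps chose the sites, those values are described below and not tested.

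T3 enters cells, binds its nuclear receptors and changes the transcription of target genes. The receptors TRα and TRβ usually bind DNA together with a retinoid X receptor, most readily at a pair of AGGTCA copies that face the same way with a short spacer between them. Without T3 they recruit corepressors, and with T3 they exchange these for coactivators. In the pituitary, T3 raises growth hormone and lowers thyroid-stimulating hormone, and the isoform TRβ2 is known for its role in that feedback.

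The study joined receptor binding, chromatin accessibility and RNA in the mouse pituitary. Binding was measured by chromatin affinity purification and sequencing (ChAP-seq). A HAB peptide tag had been inserted at the endogenous Thrb gene, so both TRβ1 and TRβ2 carried it, and the biotin ligase BirA, expressed from the Rosa26 locus, biotinylated the tag for capture on streptavidin. All animals were adult males of 2 to 4 months.

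The ChAP-seq libraries of untreated mice were 3 pituitary pools of ThrbHAB/HAB;Rosa26BirA/BirA mice, 3 pituitary control pools of Rosa26BirA/BirA mice without the tag, and 3 of each kind from cerebral cortex, with 12 pituitaries in each pituitary pool. The deposited labels list the tagged genotype for the control samples as well, while their titles and the protocol name them BirA controls, and the titles were followed. Replicates of a tissue had been pooled before peaks were called, so agreement between replicates could not be examined for any site, and the depth of these libraries is not in the lists. The labels name C57BL/6J as the strain, and the methods of the study describe a mixed background for the tagged line. For ATAC-seq, nuclei that carried Sun1-GFP under Thrb2-Cre were immunopurified from 4 hypothyroid and 4 hyperthyroid samples of 1 to 2 pituitaries each, which limits that assay to cells with Thrb2-Cre activity. ATAC-seq and RNA therefore come from treated mice, and the binding list comes from untreated mice. The study also holds ChAP-seq libraries of hypothyroid and hyperthyroid pituitaries, whose peak lists were not among the deposited files used here. The ATAC list holds only regions called as changed, with no sign in the values used here, so a site may lie in open chromatin that did not change, and such regions were not analysed.

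RNA was sequenced from C57BL/6J pituitaries in pools of 3, in 4 hypothyroid and 4 hyperthyroid wild-type libraries and in 5 hypothyroid and 5 hyperthyroid libraries labelled Thrb-deficient (Thrb-KO). Hypothyroid mice drank 0.05% methimazole (MMI) and 1% KClO4 for 4 to 5 weeks, and hyperthyroid mice drank the same with T3 at 0.5 µg/ml added in the final week. The hyperthyroid groups thus share the treatment of the hypothyroid groups, and no RNA library comes from untreated mice. Depth, as recovered from the table, ran from 21453548 to 55273749 reads per library. Values are CPM, the reads of a gene scaled to an equal total in each library, and differences are given as hyperthyroid minus hypothyroid on the scale of log2(CPM + 1), which understates changes in genes of low level. The p-values measure the spread between pools, not between single animals. In whole glands, more cells of a type and more RNA per cell cannot be told apart.

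Thrb RNA was read in every library before the genotypes were compared. In wild type it was 239, 242, 249 and 297 CPM in the hypothyroid libraries and 124, 117, 72.4 and 103 CPM in the hyperthyroid ones. The libraries labelled Thrb-KO had 272, 295, 278, 271 and 239 CPM in the hypothyroid group and 288, 301, 239, 245 and 228 CPM in the hyperthyroid group. Deficiency in Thrb thus did not show as a lower Thrb level, and the table gives 1 value per gene, which does not show whether the counted transcript includes the deleted part of the gene. In these RNA values the genotype therefore rests on the label. The study describes the line as Thrb-/- and used Thrb-KO pituitary as a TRβ-deficient control in immunostaining. Thrb fell in wild type with a log2 difference of -1.32, all 4 hyperthyroid libraries lying below all 4 hypothyroid ones, and under the Thrb-KO label it differed by -0.06, with overlapping groups.

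The RNA libraries fell into separate sets that the labels do not explain. Lars2, which encodes a mitochondrial leucyl-tRNA synthetase, was at 2571 to 3420 CPM in replicates 1 and 2 of each group and at 53.2 to 95.1 CPM in replicates 3 to 5. Of 13145 genes tested, 7857 differed between these sets at an adjusted p under 0.05 by limma, and the first component of the variation around the group means held 62.6% of it. Each group holds libraries of both sets, and each named gene below was also compared within them. The limma fit used for the calls had no term for the sets, so their difference adds to the spread that its p-values measure. Hyperthyroid wild-type replicate 3 stood apart in its composition, with 159094 CPM of Gh, 53184 CPM of the prolactin gene Prl and the lowest scaling factor of edgeR's TMM method, 0.837 in a range that reached 1.05. Summed thyrotroph markers (Tshb, Cga and Trhr; 3 of 3 genes called down in both genotypes) reached 9675, 8941, 17535 and 14841 CPM in hypothyroid and 1350.4, 1197, 2077 and 1617 CPM in hyperthyroid wild type, mostly from Cga. Summed somatotroph markers (Gh and Ghrhr) had medians of 54484 and 108355 CPM, and Prl had medians of 7405 and 21254 CPM. Gonadotroph markers had medians of 1000.3 and 1015 CPM, and the hepatocyte genes Alb and Apoa1 reached at most 1.22 CPM together. Summed erythroid markers (Hba-a1, Hbb-b1 and Alas2) were 51.8, 55.5, 42.6 and 28.5 CPM in hypothyroid and 67.8, 77.7, 65.7 and 74.9 CPM in hyperthyroid wild type, without overlap, mostly from Hba-a1, and their genes were not called (log2 differences of 0.66 to 0.76, adjusted p of 0.178 to 0.281, limma). Low sums also separated the wild-type groups for pituicyte markers (Rax and Nkx2-1; 5.26 to 7.31 CPM in hypothyroid and 8.08 to 11.3 CPM in hyperthyroid libraries) and cortical neuron markers (7.94 to 11.3 CPM and 13.5 to 21.4 CPM). Summed immune markers were 81.3 to 87.5 CPM in hypothyroid and 55.5 to 90.0 CPM in hyperthyroid wild type. Under the Thrb-KO label they were lower than in hypothyroid wild type, at 44.1 to 56.0 CPM in hypothyroid and 48.0 to 57.5 CPM in hyperthyroid libraries. Of the other markers, the cortical neuron gene Slc17a7 was called up, the fibroblast gene Col1a1 was called down, and the neuron gene Neurod6 was at or near 0. The part of changed cell shares or hormone levels in the RNA results was not tested.

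Among the 868 sites, tagged-receptor reads ran from 30 to 190 with quartiles of 33, 39 and 50, and 14 sites had 100 or more. Control reads ran from 0 to 10 with a median of 4, and 27 sites had 0. The sites were 100 to 1400 bp long with a median of 400 bp. Many sites lay close to the read limit. Exactly 30 tagged-receptor reads were found at 53 sites, while 83 peaks with 29 reads met the other conditions, and 287 sites had 30 to 34 reads against 519 otherwise eligible peaks with 25 to 29. At the control limit, 82 sites had 8 to 10 control reads, and 21 otherwise eligible peaks had 11 to 15. The closest regions that changed in ATAC-seq and did not overlap a site lay 71 bp away, and the closest cortex peak lay 1 bp away. Positions are printed as given in the lists, and a start may be off by 1 base, so that cortex peak may directly adjoin its site. Of all sites, 6 lay within 1 kb of a changed ATAC region and 26 within 1 kb of a cortex peak.

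The sites lay mostly away from gene starts. Coordinates are those of mouse build mm9, starts are those of all GENCODE transcripts, and shares carry Wilson 95% intervals that cover counting error only. A transcription start lay within 1 kb of 158 sites, or 18.2% (15.8 to 20.9), compared with 3.73% (2.27 to 6.06) of the 402 strong pituitary-only peaks that overlapped a changed ATAC region, 56.8% (51.7 to 61.7) of the 370 strong peaks shared with cortex and 23.9% (22.8 to 25.0) of the 5501 other pituitary-only peaks without ATAC change. The share at the sites thus lay between those of the other strong classes. The 5501 other peaks are called the weaker class below, with a median of 15 tagged-receptor reads. This class also holds peaks left out for more than 10 control reads, so single peaks reached 8043 tagged-receptor and 6011 control reads. The class shared with cortex was formed whatever the ATAC result, and 60 of its 370 peaks overlapped a changed ATAC region. The middle base of 477 sites (55.0%) fell in a protein-coding gene. Of the 710 sites over 1 kb from a start, 340 had their middle in an intron, 344 outside protein-coding genes, 9 in a coding exon and 16 in an untranslated exon. The median gap to a start was 12129.5 bp at the sites, 21984.5 bp in the class with ATAC change, 259.5 bp in the class shared with cortex and 9859 bp in the weaker class. More than 20 kb separated 353 sites (40.7%) from any start, and more than 100 kb separated 84 (9.68%).

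Base composition stood apart mainly in the class shared with cortex. Median GC content was 50.67% at the sites, 49.68% in the class with ATAC change, 60.59% in the class shared with cortex and 50.57% in the weaker class, with 45.7% in regions of equal length 10 kb from each site. Median CpG density was 1.429 per 100 bases at the sites and in the weaker class and 5.784 in the class shared with cortex. By chromosome, next to 10.8% of all pituitary peaks, sites made up from 7.93% of the peaks on chr13 to 14.3% on chr15 among the autosomes, and 3 of 63 on chrX, with no test of these shares.

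The neighbours of the sites were counted by distance. Another site lay within 20 kb of 100 sites (11.5%) and within 100 kb of 221 (25.5%), and the median gap to the next site was 403001 bp. Any other pituitary peak lay within 20 kb of 360 sites (41.5%) and within 100 kb of 656 (75.6%), at a median gap of 29101 bp. A changed ATAC region lay within 20 kb of 73 sites, or 8.41% (6.74 to 10.4), compared with 6.04% of the weaker class, and within 100 kb of 24.5%. The median gap to a changed ATAC region was 362499 bp at the sites and 428765 bp in the weaker class, where the rule had likewise removed every overlap. A cortex peak lay within 20 kb of 196 sites (22.6%) and within 100 kb of 54.5%.

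The densest run of peaks lay at chr7:38960900-38985899, around 1600014C10Rik, with 20 pituitary peaks of which 6 were sites. These 20 peaks held 966 tagged-receptor and 151 control reads, and 5 of them had more than 10 control reads, up to 25. The run was therefore high in the control as well. RNA of 1600014C10Rik was 27.4, 28.2, 33.1 and 29 CPM in hypothyroid and 28.1, 25.6, 23.6 and 30.5 CPM in hyperthyroid wild type. The groups overlapped, and the log2 difference was -0.12 ± 0.09 (SE; adjusted p 0.435). Another run of 14 peaks at chr1:173455500-173504599 had 83 control reads beside 374 tagged-receptor reads and contained 1 site.

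Several genes had multiple sites within 20 kb of their bodies. Besides 1600014C10Rik, Fam155a, which encodes a subunit of the sodium leak channel, had 4 sites, and Zfp831 (a zinc finger protein), Rap1gap2, Osbpl10 and Cpa5 had 3 each. Fam155a RNA was 89.7, 87.7, 81.0 and 83.7 CPM in hypothyroid and 108, 109, 80.2 and 107 CPM in hyperthyroid wild type, with a log2 difference of 0.23 ± 0.09 (SE; adjusted p 0.0752). Hyperthyroid replicate 3 was below every hypothyroid library, and the other hyperthyroid libraries were above them.

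The 12 sites with the most reads were chosen by that value and are described with the gene they lie in or the nearest start. The highest, with 190 tagged-receptor and 6 control reads, was chr2:174490650-174491349 in an intron of Zfp831, whose other sites had 82 and 35 reads. Next came chr12:106755550-106755999 (145 and 5 reads), 45383 bp from the start of the bradykinin receptor gene Bdkrb2, and chr5:130528350-130528699 (142 and 4 reads) in an intron of Crcp, which encodes an RNA polymerase III subunit. Equal in tagged-receptor reads was chr11:74281750-74282349 (142 and 7) in an intron of Rap1gap2, which encodes a protein that switches off the GTPase RAP1. These 4 sites had no gene start within 1 kb.

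Further down the order were chr11:72395350-72396099 (130 and 6 reads), 24686 bp from the start of the ubiquitin-conjugating enzyme gene Ube2g1, chr9:114959150-114959849 (118 and 9), 16548 bp from the start of the lipid-binding protein gene Osbpl10, and chr4:148767550-148768049 (117 and 3) in an intron of the ubiquitin ligase gene Ube4b. They were followed by chr18:36047050-36047799 (116 and 8), 57578 bp from the start of Cxxc5, which encodes a CpG-binding zinc finger protein, and chr15:66975100-66975549 (110 and 3), 29178 bp from the sialyltransferase gene St3gal1. The last were chr2:174141650-174142449 (106 and 4) in an intron of Gnas, the gene of the stimulatory G protein α subunit, chr15:58024250-58024649 (105 and 3) in an intron of the muscle-atrophy F-box gene Fbxo32, and chr12:75332400-75332949 (102 and 0) in an intron of the synaptotagmin gene Syt16. All 12 thus had at least 102 tagged-receptor reads and at most 9 control reads.

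RNA of the genes of these 12 sites was compared in wild type, where limma called 3.87% of all genes tested up and 5.59% down. Rap1gap2, Cxxc5 and Fbxo32 were called up, Syt16 was called down, and the other 8 were not called. Fbxo32 RNA was 46.7, 49.9, 45.0 and 40.5 CPM in hypothyroid and 106, 102, 64.4 and 72.2 CPM in hyperthyroid wild type. All hyperthyroid libraries were higher than all hypothyroid ones, with a log2 difference of 0.88 ± 0.14 (SE; adjusted p 0.00015). Libraries labelled Thrb-KO had 46.2, 50.9, 49.3, 49.7 and 55.0 CPM in the hypothyroid and 62.6, 52.1, 47.8, 49.4 and 43.1 CPM in the hyperthyroid group, where the groups overlapped and the difference was 0.01 ± 0.13 (SE; adjusted p 1.00). Cxxc5 RNA was 80.2, 78.7, 73.5 and 74.4 CPM in hypothyroid and 126, 128, 106 and 128 CPM in hyperthyroid wild type, without overlap, for a difference of 0.66 ± 0.07 (SE; adjusted p 2.32e-06). Syt16 RNA was 12.8, 10.6, 12.4 and 12.0 CPM in hypothyroid and 6.28, 6.87, 6.12 and 9.16 CPM in hyperthyroid wild type. Its hyperthyroid libraries were all lower, for a difference of -0.69 ± 0.12 (SE; adjusted p 0.000344). Among the genes not called, the wild-type differences ran from -0.63 for Bdkrb2 (adjusted p 0.107, limma) to 0.53 for Ube2g1 (adjusted p 0.0143, under 1.5-fold).

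DNA sequence was not used by the rule, and it was searched on both strands. The motif was 2 copies of AGGTCA in the same direction separated by 4 bases, with at most 2 mismatches over the 12 letters. It was found in 254 sites, or 29.3% (26.3 to 32.4), and in 39 regions of equal length 10 kb away, or 4.49% (3.30 to 6.08). Those regions are lower in GC, so they do not match the sites in composition. Over whole peaks the share was 46.3% (41.5 to 51.2) in the class with ATAC change, 25.1% (21 to 29.8) in the class shared with cortex and 16.3% (15.4 to 17.3) in the weaker class. Peak lengths differ between classes, so the middle 300 bases were also compared. There the share was 25.3% at the sites, 43.0% in the class with ATAC change, 22.4% in the class shared with cortex and 16.3% in the weaker class. The sites thus held the repeat more often than the weaker class and less often than the class with ATAC change in both counts.

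The repeat was also counted by reads and by distance to a start. In the middle 300 bases, the repeat was present in 24.3% of sites with 30 to 39 tagged-receptor reads, 26.5% with 40 to 59 and 26.8% with 60 or more. It was present in 22 of 158 sites within 1 kb of a start (13.9%) and in 198 of 710 farther away (27.9%). The repeat lay near the middle of the peak: the median distance of the match from the middle was 51.0 bp, against 112.5 bp for a base picked evenly from the same 254 sites, and 126 matches (49.6%) lay within 50 bp, against 24.4% of such bases. Among equally good matches the search took the one nearest the middle, and a match cannot be centred on a peak's edge. Both favour short distances by construction, and the evenly picked base has neither limit. With at most 1 mismatch the repeat was found in 46 sites (5.30%) and in 0.115% of the regions 10 kb away. An exact repeat was found in 7 sites (0.806%), in 0 of the regions 10 kb away and in 2 of those 5 kb away.

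The spacer of 4 bases stood out among the arrangements searched. Direct repeats with any other spacer from 0 to 8 bases were found in 7.03% to 9.91% of sites and in 4.15% to 7.72% of the regions 10 kb away. Inverted copies with spacers of 0 to 3 bases were found in 3.80% to 5.65% of sites, and everted copies with spacers of 4 to 8 bases in 3.57% to 5.18%. At least 1 plain AGGTCA was present in 429 sites (49.4%) and in 25.5% of the regions 10 kb away. Of the 614 sites without the repeat, 262 (42.7%) held AGGTCA.

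Within the 254 matches, the letters were kept unevenly. In the upstream copy, the shares that kept A, G, G, T, C and A were 81.1%, 87.4%, 89.8%, 78.3%, 85.4% and 90.6%. In the downstream copy they were 79.5%, 98.0%, 93.7%, 63.4%, 84.6% and 89.0%, so its T was the letter kept least often. The search itself favours these letters. Outside the letters searched, the last spacer base was T in 8.66% and C in 34.6% of matches, and the base before the upstream copy was T in 10.6%, where T makes up 24.1% and C 25.9% of the bases of the sites.

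Sequences are shown for sites with many tagged-receptor reads among those with at most 1 mismatch, chosen by the rule given with the methods, and for the site near Prkce because it holds an exact repeat beside a gene of the signalling lists. They are from mm9, 5′ to 3′, with 5 bases on each side, and capitals mark the AGGTCA copies as found. Positions on the minus strand are chr5:137163465-137163490 (nearest gene Myl10), chr17:52741559-52741584 (Kcnh8), chr2:75554681-75554706 (Nfe2l2), chr2:121009483-121009508 (Tubgcp4), chr16:35476353-35476378 (Pdia5), chr17:31999158-31999183 (Sik1) and chr17:86846983-86847008 (Prkce). Positions on the plus strand are chr5:115926105-115926130 (Sirt4), chr11:106177979-106178004 (nearest gene Cd79b, also upstream of Gh) and chr10:79623737-79623762 (Cirbp).
Myl10: ccagaAGGTCAcaccAGGTCTttgga
Kcnh8: gagacAGGTCActgcAGGTAAcccgc
Sirt4: cccaaAGGTCAggccAGGCCAcctgc
Nfe2l2: aaatgAGGTCAggcaGGGTCAatatc
Gh and Cd79b: agtaaATGTCAcctaAGGTCAggaag
Tubgcp4: gtgatAGGCCAaggtAGGTCAgtgag
Pdia5: tctgcAGGTCAttccAGGTGAactct
Sik1: ttcacAGGTCAtccaAGGCCActgtc
Cirbp: gaaagAGGTCActacGGGTCAtggct
Prkce: caagcAGGTCAcctgAGGTCAcctga
Tagged-receptor reads at these sites ran from 85 near Myl10 to 58 near Cirbp, apart from the Prkce site, which had 43 with 10 control reads, at the limit of the rule. Of the genes beside these sites that were tested, Gh was called up in wild type, as given with the hormone genes. Nfe2l2, which encodes the oxidative-stress regulator NRF2, differed by 0.32 (adjusted p 0.00708 by limma, under 1.5-fold), and Sirt4, Tubgcp4, Pdia5, Sik1, Cirbp and Kcnh8 were not called in wild type. Cd79b was not called by limma (0.66, adjusted p 0.0519) but was called with TMM (0.74, adjusted p 0.043) and edgeR (0.96, adjusted p 0.0425). It was also called by limma with same-numbered replicates as blocks (0.66, adjusted p 0.00143), and in 5 of 18 fits that left out 1 library.

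Repeats with 2 mismatches lay in sites near several of the genes with the largest RNA changes, and those are shown so that they can be read beside the RNA values. All are from mm9, 5′ to 3′, with the AGGTCA copies as found in capitals. Near genes that rose with T3, the matches were chr5:113926099-113926124 (plus strand, in an intron of Wscd2), chr9:45523357-45523382 (plus, in an intron of Dscaml1), chr15:80489619-80489644 (plus, downstream of Grap2), chr11:74282041-74282066 (plus, in an intron of Rap1gap2) and chr1:93254782-93254807 (minus, upstream of Fam132b). Near genes that fell, they were chr19:50521939-50521964 (minus, in an intron of Sorcs1), chr1:127736887-127736912 (plus, in an intron of Gpr39), chr9:29029091-29029116 (plus, in an intron of Ntm) and chr6:30577799-30577824 (minus, in an intron of Cpa5).
Wscd2: tggtgAGGTAAccagAGGCCAgcaaa
Dscaml1: gggtgGGGTCAtgtaAGGTCCtgcca
Grap2: tatgcAGGTCAtctgTGGCCAtccca
Rap1gap2: caggcAGGTCAcctgGGGTTAtctac
Fam132b: cgcagAGGTCGctgtGGGTCAgtcac
Sorcs1: gggttGGGTCAtcgcAGTTCAgtgaa
Gpr39: tttcaAGAGCAtctgAGGTCAgctca
Ntm: tggagAGGTCAgctcAGGATAattag
Cpa5: ggccaGGGTCAacccTGGTCAattgg
Matches of this kind were thus found beside genes of both directions. Other genes with the largest changes had no such match in their sites. These were Bcl3, Hsbp1l1, Rasd1, Whrn and Neurod4, which rose, and Nrxn3, Ttr, Vav3, Dlk1, Pam and Phlda1, which fell. A longer stretch shows what lies around the repeat in the Rap1gap2 site with 142 reads, chr11:74281934-74282173 (plus strand), again with the copies in capitals.
Rap1gap2 window: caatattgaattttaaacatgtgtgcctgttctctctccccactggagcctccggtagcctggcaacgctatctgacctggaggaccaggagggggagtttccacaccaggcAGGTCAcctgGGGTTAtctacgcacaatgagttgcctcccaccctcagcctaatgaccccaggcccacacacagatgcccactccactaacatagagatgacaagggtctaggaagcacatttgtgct

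Other short motifs were counted on both strands over whole sites and over the regions 10 kb away, which have the same lengths. GGGCGG, the GC box, was present in 21.1% of sites and 6.68% of those regions, and CCGGAAG, bound by ETS factors, in 6.11% and 1.61%. Both are GC-rich. In the middle 300 bases, GGGCGG was present in 16% of sites, 3.98% of the class with ATAC change and 50.8% of the class shared with cortex. Its share was 17.3% in the weaker class, so it ranked the classes as the share near a gene start did. For CCGGAAG these shares were 3.8%, 1.74%, 13.5% and 3.22%, so the sites and the weaker class changed order. TAATCC, bound by PITX factors of the pituitary, was present in 20.3% of sites and 15.2% of the regions away, and CAGATG, an E-box bound by NEUROD factors, in 40.0% and 32.5%. ATGNATA, as part of the sequences bound by POU1F1, was present in 21.9% and 22.8%, and TAATTA, bound by LIM homeodomain factors, in 11.1% and 11.9%. These last shares were close to each other. CAAGGTCA and TAAGGTCA, which contain AGGTCA with the extension read by receptors that bind as monomers, were present in 6.91% and 3.69% of sites and in 3.23% and 2.19% of the regions away. TGANTCA, the AP-1 motif, was present in 20.3% and 15.3%, and AGATAAG, bound by GATA factors, in 3.69% and 6.68%. Also lower at the sites were TGTGGT, bound by RUNX factors, in 21.9% and 30.1%, and GGAATG, bound by TEAD factors, in 16.4% and 24.1%. TTGGCA, bound by NFI factors, was present in 22.8% and 21.8%, TGTTTAC, bound by forkhead factors, in 6.68% and 5.99%, and TGACGTCA, bound by CREB, in 0.576% of both. A match describes letters only and does not show that a factor binds.

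The question that joins the sites to RNA is whether genes near them responded to T3 in wild type and in the libraries labelled Thrb-KO. A gene was taken as near when a site lay within 20 kb of its body, which links a site to a gene by distance alone. Of 22835 gene symbols, 13145 had a CPM above 1 in all 18 libraries and were tested. Among 857 genes near a site, 729 were tested and 128 were not. A tested gene was within reach of 603 sites (69.5%). Genes near a site had a median level of 36.7 CPM, against 21.2 CPM over all genes tested, and the tests read higher genes with more reads.

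In wild type, 95 of the 729 genes (13%) were called up and 31 (4.25%) were called down, at a limma adjusted p under 0.05 and at least 1.5-fold. Over all genes tested, 3.87% were called up and 5.59% down, which is 509 and 735 genes. The share called up near the sites was thus above the background, and the share called down was below it. This split depends on scaling: with TMM factors the calls were 670 up and 545 down over all genes and 122 up and 22 down near the sites, and edgeR on recovered read counts called 718 and 675 over all genes and 119 and 27 near the sites. The median log2 difference was 0.06 near the sites and -0.04 over all genes, and TMM moved the median of all genes by 0.0955. In 77 of the 95 and 30 of the 31, every hyperthyroid library lay beyond every hypothyroid one; over all genes tested such separation was found upward in 5.66% and downward in 11.7%. All 95 and all 31 had the same direction in replicates 1 and 2 as in replicates 3 and 4. They were called on the difference over these same libraries, which by itself favours such agreement. At least 1 gene called up was within 20 kb of 105 sites (12.1%), and at least 1 called down was within 20 kb of 35 (4.03%). No site was within 20 kb of genes of both directions.

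The share called up varied with what else lay nearby. Of 118 genes with a site and also a changed ATAC region within 20 kb, 31.4% were called up and 3.39% down, and of 611 genes with a site but no such region, 9.49% were up and 4.42% down. Genes near the strong pituitary-only peaks with ATAC change showed 32.9% up and 2.53% down among 277. The 3700 genes near peaks of the weaker class, with no site, showed 5.11% up and 5.86% down. The 7571 with no pituitary peak showed 1.73% and 6.02%. Among 483 genes near strong peaks shared with cortex, 14.7% were up and 2.69% down, close to the shares near the sites. Those shared peaks were not cleared of changed ATAC regions, which lay within 20 kb of 22.2% of them and of 8.41% of the sites. Changed ATAC regions with no pituitary peak within 20 kb of the gene went with 1.29% up and 12% down among 233 genes. The upward share near sites without a changed ATAC region thus lay above those of genes near the weaker class or near no peak. It lay below that of genes with both a site and a changed region. Of the 95 genes called up, 58 had no changed ATAC region within 20 kb and 52 had none within 100 kb, and of the 31 called down these numbers were 27 and 24. Peaks of the other strong classes were missing within 20 kb of 68 genes called up and of all 31 called down.

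The calls were also counted by the repeat, the distance and the number of sites. Among 207 genes near a site with the repeat, 19.8% were called up and 4.83% down, and among 522 near sites without it, 10.3% and 4.02%. A site in the gene body or within 1 kb of it was found for 451 genes, of which 17.1% were up and 4.43% down. Among 78 genes with 2 or more sites, 16.7% were up and 5.13% down, next to 13% and 4.25% of all 729. These sets overlap with each other and with the presence of changed ATAC regions, and their separate parts were not tested.

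Of the named genes called up, those with the largest changes and no overlap between groups were Wscd2, Bcl3, Hsbp1l1, Rasd1, Dscaml1, Whrn, Grap2, Rap1gap2, Neurod4 and Fam132b, with log2 differences from 2.43 to 1.47. They remained called in all 18 fits that left out 1 library, and with TMM and edgeR. Wscd2 encodes a membrane protein with WSC domains and has a site of 35 reads (chr5:113925950-113926349) in an intron, 6682 bp into the gene. Its RNA was 5.08, 7.72, 4.22 and 5.11 CPM in hypothyroid and 50.6, 30.8, 25.6 and 32.2 CPM in hyperthyroid wild type. Every hyperthyroid library was at least 25.6 CPM, and no hypothyroid one passed 7.72 CPM. The difference was 2.43 ± 0.19 (SE; adjusted p 2.69e-08), with 2.48 in replicates 1 and 2 and 2.39 in replicates 3 and 4. Under the Thrb-KO label, the values were 7.21, 7.95, 7.02, 7.53 and 7.77 CPM in the hypothyroid and 15.9, 14.9, 11.4, 10.1 and 9.93 CPM in the hyperthyroid group, also without overlap but at lower levels, for a difference of 0.64 ± 0.17 (SE; adjusted p 0.07).

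Bcl3, a nuclear partner of NF-κB, had sites of 50 and 43 reads at 8080 and 1705 bp upstream of its start and a changed ATAC region inside the gene. Its RNA was 2.4, 2.27, 2.11 and 2.21 CPM in hypothyroid and 12.8, 12.0, 11.4 and 12.1 CPM in hyperthyroid wild type. The libraries of each group were close to each other, and the difference was 2.01 ± 0.15 (SE; adjusted p 1.12e-08). Rasd1, a Ras-like GTPase gene first known as induced by glucocorticoid, had a site of 69 reads (chr11:59779900-59780199) at 1603 bp upstream, with no changed ATAC region within 539531 bp of the gene. Its RNA was 16.9, 21.1, 30.4 and 35.1 CPM in hypothyroid and 91.4, 78.3, 97.2 and 126 CPM in hyperthyroid wild type. All hyperthyroid libraries were higher, with a difference of 1.92 ± 0.26 (SE; adjusted p 2.06e-05). Neurod4, a basic helix-loop-helix factor of the pituitary lineages, had a site of 50 reads (chr10:129712750-129713199) inside the gene and no changed ATAC region within 1724799 bp. Its RNA was 30.8, 37.2, 21.4 and 21.9 CPM in hypothyroid and 67.9, 105, 66.9 and 76.5 CPM in hyperthyroid wild type. The hyperthyroid libraries were all above the hypothyroid ones, with a difference of 1.49 ± 0.17 (SE; adjusted p 3.31e-06).

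Rap1gap2 combined a site among the 12 strongest with 2 more in its introns, of 48 and 39 reads, and a changed ATAC region inside the gene body. Its RNA was 75.1, 83.0, 49.8 and 49.6 CPM in hypothyroid and 225, 222, 121 and 181 CPM in hyperthyroid wild type. The hyperthyroid libraries were all higher, and the difference was 1.52 ± 0.20 (SE; adjusted p 1.68e-05). Grap2, an adaptor of T cell signalling, had a site of 38 reads at 8785 bp downstream and no changed ATAC region within 731718 bp. Its RNA was 2.08, 1.95, 1.7 and 1.16 CPM in hypothyroid and 7.83, 8.35, 4.66 and 7.17 CPM in hyperthyroid wild type. The groups did not overlap, and the difference was 1.54 ± 0.14 (SE; adjusted p 2.41e-07), while its level in hypothyroid libraries labelled Thrb-KO was already 8.41 to 11.2 CPM, above that of hyperthyroid wild type in all 5 of them. Dscaml1, a cell adhesion gene, had sites of 36 and 33 reads in its introns and a difference of 1.75 ± 0.17 (SE; adjusted p 3.05e-07). Whrn, which encodes a scaffold protein of hair-cell stereocilia, had a site of 60 reads in an intron and a difference of 1.60 ± 0.14 (SE; adjusted p 1.63e-07). Both also had a changed ATAC region within the gene. Fam132b, the gene of the secreted protein erythroferrone, had a site of 35 reads at 8258 bp upstream and a difference of 1.47 ± 0.19 (SE; adjusted p 1.13e-05). Hsbp1l1, related to a binding protein of heat shock factor, had a site of 52 reads at 9058 bp upstream, across another transcription start, and a difference of 1.99 ± 0.16 (SE; adjusted p 3.67e-08). A changed ATAC region overlapped that gene, and the one closest to its site lay 18856 bp away. All 4 genes were higher in 4 of 4 hyperthyroid wild-type libraries than in any hypothyroid one.

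Of the genes called down, the largest changes without overlap were in Sorcs1, Nrxn3, Ttr, Vav3, Dlk1, Pam, Gpr39, Ntm, Phlda1 and Cpa5, from -2.41 to -0.93. These calls too remained in all 18 fits that left out 1 library, and with TMM and edgeR, and the changed ATAC region closest to any of them lay 92022 bp from Phlda1. Sorcs1, a sorting receptor of secretory cells, had a site of 34 reads (chr19:50521850-50522299) in an intron, 231028 bp into the gene. Its RNA was 77.2, 80.2, 73.8 and 77.9 CPM in hypothyroid and 17.3, 16.4, 9.12 and 13.6 CPM in hyperthyroid wild type. No hyperthyroid library passed 17.3 CPM, and no hypothyroid one was under 73.8 CPM, so the difference was -2.41 ± 0.15 (SE; adjusted p 1.92e-09). The Thrb-KO label went with 45.6, 43.0, 46.5, 36.9 and 46.3 CPM in the hypothyroid and 34.4, 35.6, 26.6, 31.2 and 25.2 CPM in the hyperthyroid group. These groups did not overlap either, and the difference was smaller, -0.51 ± 0.14 (SE; adjusted p 0.0726).

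Pam encodes the enzyme that amidates peptide hormones. It had a site of 32 reads (chr1:99873400-99874049) inside the gene, at an internal start. Its RNA was 1035, 989, 1223 and 1253 CPM in hypothyroid and 380.2, 370.5, 435 and 405 CPM in hyperthyroid wild type. Every hyperthyroid library was lower, with a difference of -1.49 ± 0.09 (SE; adjusted p 8.4e-10). Libraries labelled Thrb-KO had 669, 732, 675, 695 and 741 CPM in the hypothyroid and 487, 509, 481, 457 and 477 CPM in the hyperthyroid group, again without overlap, for a difference of -0.54 ± 0.08 (SE; adjusted p 0.000412). Dlk1, a membrane protein related to Notch ligands, had a site of 45 reads at 6809 bp upstream. Its RNA was 4354, 3599, 4511 and 4635 CPM in hypothyroid and 1605, 1360, 1246 and 1501 CPM in hyperthyroid wild type. The hyperthyroid libraries were all lower, with a difference of -1.58 ± 0.11 (SE; adjusted p 7.95e-09).

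Nrxn3, a synaptic adhesion gene, had a site of 44 reads in an intron, and its RNA was 36.8, 40.5, 68.3 and 68.7 CPM in hypothyroid and 12.2, 10.1, 8.8 and 9.61 CPM in hyperthyroid wild type. The hypothyroid replicates 3 and 4 were higher than 1 and 2, and the difference of -2.24 ± 0.17 (SE; adjusted p 2.39e-08) was -1.71 and -2.77 within the sets. Ttr, the gene of the thyroxine carrier transthyretin, had a site of 44 reads in its body, and its RNA was 9.5, 8.25, 15.5 and 16.8 CPM in hypothyroid and 1.44, 1.21, 3.61 and 1.81 CPM in hyperthyroid wild type. It was low throughout and lower in all hyperthyroid libraries, with a difference of -2.17 ± 0.21 (SE; adjusted p 4.45e-07). Vav3, a guanine nucleotide exchange factor gene, had a site of 46 reads and a difference of -1.99 ± 0.13 (SE; adjusted p 3.84e-09). The zinc-sensing receptor gene Gpr39 (site of 32 reads), the adhesion gene Ntm (32 reads) and Phlda1, a gene with a pleckstrin homology-like domain (34 reads), differed by -1.41 ± 0.11 (SE; adjusted p 1.78e-08), -1.09 ± 0.14 (SE; adjusted p 1.34e-05) and -0.96 ± 0.12 (SE; adjusted p 1.44e-05). The carboxypeptidase gene Cpa5 had a site of 55 reads in an intron and sites of 101 and 82 reads at 18486 and 19036 bp upstream. The middle of the site of 82 reads fell in an untranslated exon of another gene. Cpa5 had a difference of -0.93 ± 0.10 (SE; adjusted p 9.65e-07), at CPM of 5.91 or less in all wild-type libraries. In each of these genes, 4 of 4 hyperthyroid wild-type libraries were below every hypothyroid one.

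Among pituitary hormones and the receptors of their releasing factors, 16 of 18 listed genes were tested, 2 were called up and 3 down in wild type, and 3 had a site nearby. Such list counts stand beside 3.87% up and 5.59% down of all genes tested, or 5.1% and 4.15% with TMM, and were not tested as lists. The growth hormone gene Gh had a site of 46 reads (chr11:106163050-106163449) across its start, and a changed ATAC region overlapped the gene itself. Another site of 75 reads (chr11:106177900-106178649) lay 15095 bp upstream, with Cd79b as its nearest gene and another transcription start 1824 bp away. Gh RNA was 48332, 51022, 66226 and 57732 CPM in hypothyroid and 104306, 87356, 159094 and 112135 CPM in hyperthyroid wild type. The hyperthyroid libraries were all higher, replicate 3 most of all, and the difference was 1.03 ± 0.21 (SE; adjusted p 0.0017). Libraries labelled Thrb-KO had 57865, 57762, 73698, 70320 and 72480 CPM in the hypothyroid and 94943, 89351, 82874, 88335 and 114941 CPM in the hyperthyroid group. These groups did not overlap either, yet the difference was 0.50 ± 0.19 (SE; adjusted p 0.337) and was not called. Ghrhr, the receptor for growth hormone-releasing hormone, had a site of 40 reads at its start and differed by 0.20 ± 0.10 (SE; adjusted p 0.231). Sstr5, a somatostatin receptor gene, had a site of 53 reads at 4176 bp upstream and differed by 0.48 ± 0.22 (SE; adjusted p 0.155). Neither was called in wild type.

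Among lineage transcription factors, 21 of 26 were tested, with 4 called up and 2 down, and the genes near a site were Pou1f1, Neurod4 and Lhx3. Pou1f1, required for somatotrophs, lactotrophs and thyrotrophs, had sites of 80 and 39 reads at 5998 and 14798 bp upstream, and its RNA was 88.3, 121, 151 and 135 CPM in hypothyroid and 109, 125, 96.1 and 135 CPM in hyperthyroid wild type. The groups overlapped, with a difference of -0.07 ± 0.18 (SE; adjusted p 0.86). Lhx3, a LIM homeodomain factor of early pituitary development, had a site of 33 reads downstream and was called up, by 0.60 ± 0.15 (SE; adjusted p 0.006), with 4 of 4 hyperthyroid libraries above the hypothyroid ones. This difference is close to the 1.5-fold limit, and the call was lost without hypothyroid wild-type replicates 1 or 2 or hyperthyroid wild-type replicates 1 or 4, with a lowest difference of 0.48.

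Of 20 thyroid hormone receptor, partner and coregulator genes, all tested, 0 were called up and 1 was called down, and those near sites included Thra and Rxra. The TRα gene Thra fell by 0.45 ± 0.10 (SE; adjusted p 0.00305) and the circadian receptor gene Nr1d1 by 0.52 ± 0.14 (SE; adjusted p 0.0119), both under 1.5-fold. These genes overlap at their ends on opposite strands and share sites of 33 reads each, and without strand information the reads within that overlap cannot be told apart. The RXRα gene Rxra had a site of 33 reads and differed by -0.11 ± 0.18 (SE; adjusted p 0.774). Deiodinase and thyroid hormone transporter genes had 0 of 10 near a site, and of the 6 tested 0 were called up and 2 down.

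Other nuclear receptors had 30 of 34 genes tested, 4 called up and 1 down, and 6 near a site. Ppard, a receptor for fatty acids, had sites of 38 and 31 reads in its introns, and its RNA was 39.9, 37.8, 34 and 34.1 CPM in hypothyroid and 97.9, 93.5, 62.0 and 88.0 CPM in hyperthyroid wild type. No groups overlapped, and the difference was 1.19 ± 0.11 (SE; adjusted p 2.56e-07). The retinoic acid receptor gene Rara, with a site of 49 reads, differed by 0.86 ± 0.15 (SE; adjusted p 0.000377), and the estrogen receptor gene Esr1, with sites of 80, 50 and 38 reads, by 0.95 ± 0.30 (SE; adjusted p 0.0305). These 3 were the genes of this list called up near a site, and the Rara groups did not overlap. Esr1 was 163, 186, 77.2 and 90.2 CPM in hypothyroid and 314, 331, 140.3 and 207 CPM in hyperthyroid wild type. Its groups overlapped, since replicates 3 and 4 were lower than 1 and 2 in each, and the differences within these sets were 0.88 and 1.02. Changed ATAC regions overlapped the Esr1 gene. The Esr1 call was lost without hypothyroid wild-type replicates 3 or 4 or hyperthyroid wild-type replicates 1 or 2, with a lowest difference of 0.74. Leaving out such a library also changes the balance of the sets between the groups. With same-numbered replicates as blocks, which also separate the sets, limma gave 0.95 (adjusted p 1.72e-05). Rora, with a site of 62 reads, and Nr2c1, with a site of 36 reads across its start, were not called.

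Signalling genes near sites are given by list. Of 25 tested genes for cAMP and calcium signalling, 2 were called up and 6 down, and 8 were near a site. The calcium channel genes Cacna1a (site of 39 reads) and Cacna1d (sites of 58, 52 and 38 reads) were the 2 called up. Cacna1a RNA was 36.2, 37.2, 28.5 and 28.0 CPM in hypothyroid and 69.9, 72.0, 57.4 and 63.7 CPM in hyperthyroid wild type. The groups did not overlap, with a difference of 1.00 ± 0.11 (SE; adjusted p 1.4e-06). Cacna1d differed by 0.95 ± 0.18 (SE; adjusted p 0.000852), with overlap at hyperthyroid replicate 3 (149 CPM), which was below the highest hypothyroid library (151 CPM), and a changed ATAC region overlapped the gene. Gnas and the adenylyl cyclase genes Adcy2, Adcy5 and Adcy6, the phosphodiesterase gene Pde4d and the protein kinase C gene Prkce were not called, with differences from -0.42 to -0.18 and adjusted p from 0.0195 (Adcy2) to 0.452 (Adcy6). Of 25 insulin and IGF signalling genes, all tested, 4 were called up and 3 down. The kinase gene Akt2, with a site of 34 reads, was called up by 1.01 ± 0.10 (SE; adjusted p 1.05e-06), with all hyperthyroid libraries higher and a changed ATAC region within the gene. Gsk3b and Grb10, with sites of 36 and 30 reads, were not called.

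Of 20 secretory granule and prohormone processing genes, all tested, 0 were called up and 8 down by limma, and 3 were near a site. They were Pam, Syt7 and Rab3a. Rab3a, a GTPase of granule release, had a site of 35 reads at 15548 bp downstream. That site lay in an intron of another gene, 237 bp from another transcription start. Rab3a differed by -0.59 ± 0.12 (SE; adjusted p 0.00173), with 4 of 4 hyperthyroid libraries below the hypothyroid ones. That call was lost with TMM (-0.49), with edgeR, and without hypothyroid wild-type replicates 3 or 4 or hyperthyroid wild-type replicates 1 or 2. The calcium sensor gene Syt7 was not called. Among 14 tested T3 target genes known from other tissues, 5 were called up and 1 down, and Bcl3 alone was near a site.

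In the libraries labelled Thrb-KO, 8 of the 729 genes near a site (1.1%) were called up and 5 (0.686%) down, against 0.411% and 0.601% of all genes tested. Without hyperthyroid Thrb-KO replicate 4, the genes called down were 3. Those called up were Cish, Col16a1, Dbp, Fam132b, Hsbp1l1, Klf13, Tmeff1 and Tor3a, and those called down were Nrxn3, Ntm, Phlda1, Ttr and Vav3. All were also called in wild type in the same direction except Tor3a, and those outside the named genes were listed after their values were seen. Ttr RNA in these libraries was 6.15, 6.91, 6.69, 8.12 and 6.49 CPM in the hypothyroid and 1.2, 1.64, 1.53, 1.58 and 1.58 CPM in the hyperthyroid group, without overlap, for a difference of -1.65 ± 0.19 (SE; adjusted p 2.18e-05). The circadian activator gene Dbp and the zinc finger gene Klf13 differed by 0.67 ± 0.11 (SE; adjusted p 0.00173) and 0.70 ± 0.11 (SE; adjusted p 0.000959), next to 0.62 ± 0.13 (SE; adjusted p 0.00145) and 0.77 ± 0.12 (SE; adjusted p 0.000162) in wild type. The wild-type call of Dbp was lost without hypothyroid wild-type replicates 2 or 4 or hyperthyroid wild-type replicates 2 or 4, where its lowest difference was 0.55. Tor3a, which encodes a torsin ATPase, differed by 0.63 ± 0.10 (SE; adjusted p 0.00103) in these libraries and by 0.09 ± 0.11 (SE; adjusted p 0.705) in wild type, and its call was lost without hypothyroid Thrb-KO replicate 5. The Col16a1 call was the least stable and held in 6 of 18 fits that left out 1 library. Nrxn3 was called in 15 of those fits (lost without hyperthyroid Thrb-KO replicates 3, 4 or 5) and Phlda1 in 16 (lost without hypothyroid Thrb-KO replicate 1 or hyperthyroid Thrb-KO replicate 4).

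The difference between the responses was tested itself, as an interaction. It was called for 67 of the 729 genes (9.19%), against 5.46% of all genes tested, and for 46 of the 95 genes called up and 11 of the 31 called down in wild type. The count rests partly on hyperthyroid wild-type replicate 3: without that library it was 116 (15.9%), against 8.21% of all genes in that fit. With same-numbered replicates as blocks it was 131 (18%), against 10.8% of all genes. The estimate in the libraries labelled Thrb-KO was smaller than in wild type for 94 of 95 genes called up and for all 31 called down, with medians of 0.22 next to 0.90, and -0.25 next to -0.75. These genes were selected on the wild-type value, which by itself favours a smaller value in the other comparison. The largest interaction among named genes was that of Sorcs1, 1.90 ± 0.20 (SE; adjusted p 9.01e-06), followed by Wscd2, -1.79 ± 0.25 (SE; adjusted p 0.000213), and Bcl3, -1.60 ± 0.20 (SE; adjusted p 4.97e-05). For Fam132b (-0.59 ± 0.25 (SE; adjusted p 0.242)), Ttr (0.52 ± 0.28 (SE; adjusted p 0.442)), Ntm (0.29 ± 0.19 (SE; adjusted p 0.573)), Phlda1 (0.33 ± 0.17 (SE; adjusted p 0.38)) and Gh (-0.53 ± 0.29 (SE; adjusted p 0.447)) it was not called. The interactions of Rap1gap2, Akt2 and Rara were near the limit, with adjusted p of 0.0327, 0.0365 and 0.0469 for -1.01, -0.52 and -0.71, and held in 6, 5 and 4 of 18 fits that left out 1 library.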

How the data were processed

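For ChAP-seq the authors aligned reads with Bowtie2 to mm9, merged replicates and called peaks with SICER 1.1, and the deposited lists give counts of tagged-receptor and control reads per peak. The ATAC list, made by the authors with MACS2 and edgeR, gives an adjusted p-value per region, of which only positions were used. The deposited RNA table gives the authors' CPM per transcript, aligned with STAR per the labels, although the methods of the study name another aligner. One value per gene symbol was kept, that of the transcript with the highest mean. Read counts recovered from the CPM steps were whole in 100% of values within 0.02.

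Overlap meant at least 1 shared bp. The 13145 genes whose CPM exceeded 1 in each of 18 libraries were fitted by limma 3.58.1 (trend) in R 4.3.3 on log2(CPM + 1), with all 4 groups in 1 fit and Benjamini-Hochberg adjustment over all of them. Calls needed an adjusted p under 0.05 and at least 1.5-fold, and the interaction had no fold limit. On the recovered counts, edgeR 4.0.16 called 718 genes up and 675 down in wild type. Alternatives were DESeq2 1.42.0, TMM scaling, other filters, a pseudocount of 0.5, other distances and read limits, library sets, and leaving out each library. A replicate block was an alternative. Same-numbered libraries of the hypothyroid and hyperthyroid wild-type groups correlated across genes, around their group means, by 0.647, 0.815, 0.477 and 0.255, and differently numbered ones of the same library set by 0.621 to 0.755, so the numbers do not show pairs beyond the sets. Motifs were searched with Python 3.11.15, and Wilson intervals came from scipy 1.17.1. The steps were tested on simulated data.

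Named genes were those of the 12 sites with the most reads, the 10 genes up and the 10 down with the largest wild-type change among called genes whose groups do not overlap, every gene of the 9 lists with a site within 20 kb, and the 6 genes with the most sites. Ties among the last were broken by most reads, a choice made after values were seen. Printed sequences are from the 10 sites with the most reads and at most 1 mismatch, with chromosome 18 left out of all printed sequence, and from matches at named genes. Some of these sequences and some named genes are not printed. Members and lists were chosen with earlier results of these data known.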

Additional observations from a re-analysis of the deposited data

Results flagged for a closer look

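In 8 of 224 pairs of a named gene and a group, over 56 genes, a single library lay far from the others of its group by Dixon's ratio, which chance alone gives in about 1 in 20 groups. In hyperthyroid wild-type replicate 3, these were Cxxc5 at 106 CPM, Adcy2 at 17.8 CPM and Fam155a at 80.2 CPM, each the lowest of its group. In hypothyroid Thrb-KO replicate 4 they were Osbpl10 at 7.20 CPM, the lowest, and Rasd1 at 55.0 CPM, the highest. The others were Fam132b at 1.47 CPM in hypothyroid Thrb-KO replicate 1, Ttr at 1.20 CPM in hyperthyroid Thrb-KO replicate 1 and 1600014C10Rik at 32.8 CPM in hyperthyroid Thrb-KO replicate 5.

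For 22 of the 56 named genes tested, the response in libraries labelled Thrb-KO differed from that in wild type by the interaction test. Over all genes tested, this share was 5.46%. The 2 shares are not directly comparable, since many named genes were chosen for a large wild-type change. That choice by itself favours a smaller value under the Thrb-KO label. Values are given here as the Thrb-KO minus the wild-type log2 difference. Genes that rose in wild type had negative values: Wscd2 -1.795, Bcl3 -1.60, Whrn -1.49, Rasd1 -1.43, Dscaml1 -1.32, Hsbp1l1 -1.25, Grap2 -1.21, Neurod4 -1.11, Rap1gap2 -1.01, Ppard -0.96, Fbxo32 -0.86, Cacna1a -0.79, Rara -0.715, Cxxc5 -0.53 and Akt2 -0.52. The interactions of Rap1gap2, Akt2 and Rara were near the limit and were lost in most fits that left out 1 library. Genes that fell had positive values: Sorcs1 1.90, Nrxn3 1.54, Gpr39 1.15, Dlk1 1.13, Pam 0.95, Vav3 0.86 and Cpa5 0.55. All are smaller responses under the Thrb-KO label, while Thrb RNA itself was not lower in those libraries.

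The binding lists used are from untreated mice and RNA is from treated mice, and lists from the study's ChAP-seq libraries of treated mice were not used, so the receptor's presence at a site under each treatment was not read. Pooled peak calls give no spread between replicates, and low read numbers at most sites limit how well their order is known. A distance of 20 kb does not show which gene a site acts on.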

How the results depend on the processing

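With 17 settings other than leaving out libraries, the count of genes near sites called up in wild type stayed within 1.5 times its value in 14, the count called down in 13, the counts in the libraries labelled Thrb-KO in 12 each, and the interaction count in 8. Changing the site rule changed the number of sites by construction: 2272 with at least 20 tagged-receptor reads, 222 with at least 50 and 429 with at most 3 control reads. With these rules the genes called up in wild type were 179, 41 and 52, and those called down 91, 9 and 11. In the libraries labelled Thrb-KO the same rules gave 22, 3 and 3 up and 12, 0 and 1 down, and interaction counts of 145, 27 and 30.

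The share of sites with the repeat was 34.2% with at least 50 reads (the cause was not tested), and by construction 5.30% with at most 1 mismatch, 72.8% with at most 3 and 25.3% in the middle 300 bases. The share near a start was 22.8% with at least 20 reads, 14.4% with at least 50 and 14.7% with at most 3 control reads (the cause was not tested), and by construction 15.1% within 500 bp and 33.8% within 5 kb. The share with a changed ATAC region nearby was 14.4% when overlap needed 0.5 of the peak, which lets partly overlapping peaks in, 3.34% within 5 kb and 24.5% within 100 kb.

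Taking sites within 100 kb added genes by construction: 89 down in wild type, 20 up and 11 down in the libraries labelled Thrb-KO, and 126 with an interaction. Taking only the gene with the nearest start gave 8 down in the libraries labelled Thrb-KO. The interaction count was 163 with unadjusted p, which is looser by construction. It was 131 with the replicate block, which takes same-numbered libraries as a pairing and also separates the library sets, 140 with the library set as a term, 152 in replicates 1 and 2 only and 115 with DESeq2, which also called 13 genes up in the libraries labelled Thrb-KO. For these counts, and for that of the nearest start, the cause was not tested, except for 163, where the looser p is the construction. Leaving out 1 library at a time (18 fits) gave 83 to 121 genes up and 25 to 32 down in wild type, 6 to 10 up and 3 to 5 down in the libraries labelled Thrb-KO, and 54 to 116 with an interaction, the last without hyperthyroid wild-type replicate 3.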
